A study of Mus musculus with 6 samples.

Results

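The genes described here are 10 genes of antibody-secreting plasma cells and of IgA transport, namely Mzb1, Tnfrsf17, Derl3, Pou2af1, Xbp1, Prdm1, Irf4, Pigr, Tnfsf13b and Tnfsf13. They were chosen by name, with earlier results of these data known, from the 30777 genes of the deposited table. All 10 were expressed highly enough to be tested. RNA was sequenced from colon tissue of BALB/c mice, an inbred laboratory strain, in 6 libraries. The 5-Fu group held 3 libraries of mice given 5-fluorouracil, a pyrimidine analogue that damages dividing cells of the gut lining. The 5-Fu+BBR group held 3 libraries of mice given 5-fluorouracil and berberine, a plant alkaloid. 5-fluorouracil was therefore shared by both groups, and a library without it was not analysed here. The labels used give no age, dose or time. They also leave unsaid whether each sample was a different mouse, so a p-value here reflects sample-to-sample spread, which may be technical. The question was how the colon transcriptome with berberine differs from that with 5-fluorouracil alone.

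Plasma cells arise when an activated B cell shuts down its B cell genes and switches to making one secreted antibody in bulk. IRF4 and BLIMP1, the product of Prdm1, drive that switch, and XBP1 enlarges the endoplasmic reticulum in which antibody chains fold. In the gut most plasma cells lie beneath the epithelium and secrete IgA joined by the J chain, which the receptor encoded by Pigr carries across epithelial cells into the lumen. The cytokines BAFF and APRIL, encoded by Tnfsf13b and Tnfsf13, keep B cells and plasma cells alive through receptors that include BCMA, the product of Tnfrsf17.

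The deposited estimated counts summed to 53824752 to 63831168 per library. Among long genes with 1 transcript the commonest count above 0 was 4 in every library. A count can thus be less than a sequenced fragment, and the sums can exceed the number of fragments. All 13 colon epithelium markers, among them Epcam and Cdx2, were detected in every library, and their summed level was 17040 to 22790 CPM (counts scaled to a common library size) in 5-Fu and 16610 to 19540 CPM in 5-Fu+BBR. The 5-Fu+BBR replicates 2 and 3 stood apart in 13 kidney nephron genes, with summed levels of 213 and 215 CPM against 41.8 CPM in 5-Fu+BBR replicate 1 and 48.6 to 64.1 CPM in 5-Fu. Each library had at least 12 of the 13 kidney genes above 0. Log2 fold changes of the genes that vary most are therefore also given without these libraries.

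The promoter windows of 4 of the genes are shown because they hold the letters bound by factors of the unfolded protein response, by interferon regulatory factors or by E-box factors. Windows cover 250 bases before to 50 bases from the RefSeq transcript start in GRCm38.p6, and 9 of the 10 genes, all but Mzb1, matched an entry by symbol. Each is written 5′ to 3′ on the gene's strand, with motif matches in capitals.
Derl3, chr10:75893148-75893447, plus strand: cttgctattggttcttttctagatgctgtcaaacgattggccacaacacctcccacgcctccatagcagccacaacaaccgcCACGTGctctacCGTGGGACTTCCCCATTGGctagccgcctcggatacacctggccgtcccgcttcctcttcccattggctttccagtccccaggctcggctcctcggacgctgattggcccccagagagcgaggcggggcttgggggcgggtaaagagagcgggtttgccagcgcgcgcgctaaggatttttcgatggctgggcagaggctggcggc
Pou2af1, chr9:51213440-51213739, plus strand: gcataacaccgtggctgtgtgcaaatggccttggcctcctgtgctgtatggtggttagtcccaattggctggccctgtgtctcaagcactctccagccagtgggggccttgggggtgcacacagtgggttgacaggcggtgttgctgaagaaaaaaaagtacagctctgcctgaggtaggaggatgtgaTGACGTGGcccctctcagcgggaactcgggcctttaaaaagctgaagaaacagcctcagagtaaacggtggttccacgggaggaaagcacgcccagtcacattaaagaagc
Tnfrsf17, chr16:11313559-11313858, plus strand: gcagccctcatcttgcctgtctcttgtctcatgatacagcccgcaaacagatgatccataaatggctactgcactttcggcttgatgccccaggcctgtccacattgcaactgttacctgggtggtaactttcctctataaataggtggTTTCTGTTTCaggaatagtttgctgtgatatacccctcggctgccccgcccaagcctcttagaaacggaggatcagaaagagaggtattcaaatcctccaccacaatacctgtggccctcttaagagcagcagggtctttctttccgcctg
Pigr, chr1:130826434-130826733, plus strand: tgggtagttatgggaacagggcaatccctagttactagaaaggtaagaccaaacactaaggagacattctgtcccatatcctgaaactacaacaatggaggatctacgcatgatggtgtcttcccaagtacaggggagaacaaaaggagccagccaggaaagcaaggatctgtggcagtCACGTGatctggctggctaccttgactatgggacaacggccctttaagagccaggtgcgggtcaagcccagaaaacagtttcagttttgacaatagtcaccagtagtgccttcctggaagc

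Derl3 encodes a component of the machinery that removes misfolded proteins from the endoplasmic reticulum. Its window holds the endoplasmic reticulum stress element (CCAAT, any 9 bases, CCACG), on the reverse strand as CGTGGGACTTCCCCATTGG, from position -156 to -138 before the start, and an E-box CACGTG from -168 to -163. The stress element was found in 0.119% of 32851 mouse promoter windows of the same length and the E-box in 7.15%, both strands searched. Pou2af1 holds TGACGTGG, the core of the unfolded protein response element bound by XBP1, from -61 to -54, which 0.676% of windows hold. Tnfrsf17 holds the core of the interferon-stimulated response element (GAAA, any 2 bases, GAAA) as TTTCTGTTTC on the reverse strand from -101 to -92, and 3.44% of windows hold it. The same core is at -16 to -7 in the downstream one of the 2 windows of Tnfsf13b. Pigr holds an E-box from -71 to -66, a motif bound by USF factors in the human gene. The octamer ATGCAAAT, present in 1.74% of windows, was not among the letters of any of these windows. No match overlapped another, and a match describes the sequence only.

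By FPKM, a level per transcript length and per depth of the library, Pigr was by far the most abundant of the 10 genes, with a mean of 760.8 FPKM over the 6 libraries. It ranked between 29 and 63 of all 30777 genes in every library. Xbp1 followed at 67.1 FPKM. Mzb1, Pou2af1 and Tnfsf13 came next with means of 16.05, 14.9 and 14.8 FPKM, and their ranges over libraries overlapped. Irf4, Derl3, Prdm1 and Tnfsf13b had means of 2.80, 2.75, 2.598 and 1.86 FPKM with overlapping ranges. Tnfrsf17 had the lowest mean, 1.41 FPKM, with a range that overlapped those of Tnfsf13b, Prdm1, Derl3 and Irf4.

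None of the 10 genes passed the test between groups. With edgeR's quasi-likelihood test and a threshold of 0.05 on the adjusted p, 0 of 10 passed, where 0.0746% of the 20101 genes tested did (0.0597% with positive and 0.0149% with negative log2 fold changes). At an unadjusted p under 0.05, 3 of 10 did, all with positive log2 fold changes, namely Tnfrsf17, Pou2af1 and Irf4, where 9.48% of all genes did so in that direction and 6.08% in the other. Leaving out 1 library made this count 1 (without 5-Fu replicate 2, 5-Fu+BBR replicate 2 or 5-Fu+BBR replicate 3), 2 (without 5-Fu replicate 1), 4 (without 5-Fu+BBR replicate 1) or 6 (without 5-Fu replicate 3). The number over all genes, in either direction, moved as well. With all libraries it was 3128 of 20101. It was 2062 of 20852, 3243 of 20763 and 3736 of 20878 without 5-Fu replicates 1, 2 and 3. Without 5-Fu+BBR replicates 1, 2 and 3 it was 2894 of 20806, 1888 of 20705 and 2493 of 20687. DESeq2 passed 2 of the 10, both with positive log2 fold changes, where it passed 4.55% of all genes in that direction. The count was 0 with limma-voom and 0 of the 9 that limma-trend on log2 FPKM could test. In 9 of the 10 the log2 fold change (5-Fu+BBR minus 5-Fu) was above 0, as in 50.7% of all genes, and the median was 0.69 against 0.01 for all genes tested. In bulk tissue, a change in the number of cells of a type and a change in RNA per cell cannot be told apart.

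**Figure D1:**
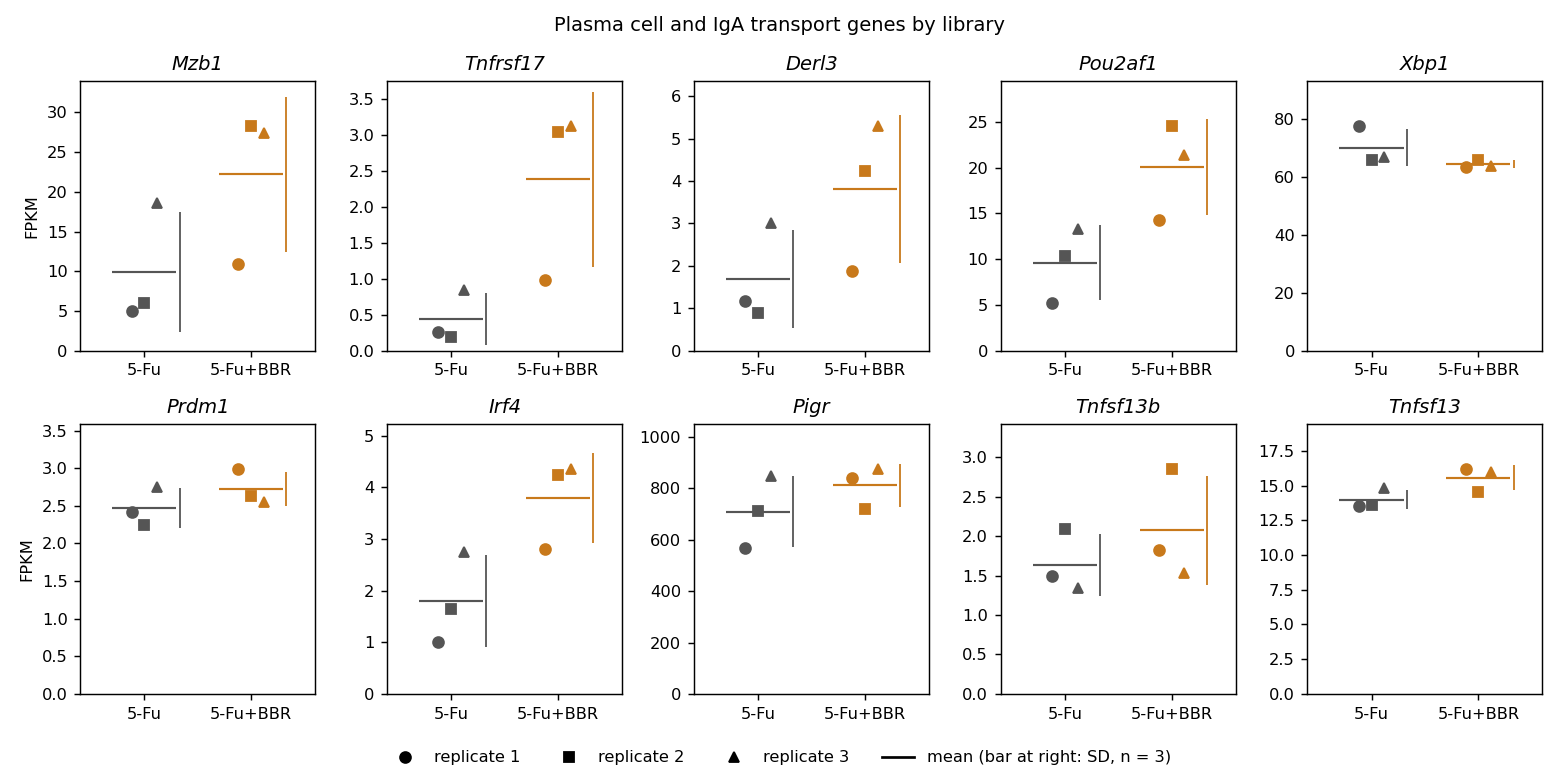
FPKM of each of the 10 genes (vertical axes, each from 0) in the 3 libraries of 5-Fu and the 3 of 5-Fu+BBR, with group means as lines and SD as bars. For Mzb1 the 5-Fu+BBR values of 10.96, 28.3 and 27.4 FPKM straddle the 18.6 FPKM of 5-Fu replicate 3, while Xbp1 and Prdm1 stay within a narrow range.

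Among the regulators, Irf4, the transcription factor that starts plasma cell differentiation, was at 1.01, 1.64 and 2.75 FPKM in 5-Fu replicates 1 to 3 and at 2.80, 4.25 and 4.35 FPKM in 5-Fu+BBR replicates 1 to 3. The groups did not overlap in FPKM, but only by the distance from 2.75 to 2.80, and they overlapped in CPM. Irf4 had a log2 fold change of 1.04 ± 0.39 (SE, n = 3 per group) with an adjusted p of 0.271 by edgeR. It is also expressed in dendritic and T cells.

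Pou2af1 encodes the coactivator OCA-B, which works with octamer-binding factors at immunoglobulin genes in B and plasma cells. It was at 5.19, 10.4 and 13.3 FPKM in 5-Fu and 14.3, 24.6 and 21.4 FPKM in 5-Fu+BBR. Every 5-Fu+BBR library lay above every 5-Fu library, with replicate 3 of 5-Fu and replicate 1 of 5-Fu+BBR almost level. The log2 fold change was 1.04 ± 0.38 (adjusted p = 0.272 by edgeR). DESeq2 gave an adjusted p of 0.0454.

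Prdm1 and Xbp1 stood apart from these. Prdm1 was at 2.42, 2.24 and 2.75 FPKM in 5-Fu and 2.99, 2.63 and 2.56 FPKM in 5-Fu+BBR, overlapping groups with a log2 fold change of 0.13 ± 0.17 (adjusted p = 0.759 by edgeR). Leaving out 1 library gave Prdm1 0.03 (without 5-Fu replicate 2) to 0.28 (without 5-Fu replicate 3). Prdm1 is also made by T cells and by immature gut epithelium. Xbp1 was at 77.5, 65.92 and 66.7 FPKM in 5-Fu and 63.2, 65.85 and 63.6 FPKM in 5-Fu+BBR. It was the only one of the 10 with a negative log2 fold change, of -0.13 ± 0.12 (adjusted p = 0.650 by edgeR), which was -0.06 without 5-Fu replicate 1 and -0.21 without 5-Fu replicate 2. All 5-Fu+BBR libraries were below all 5-Fu libraries in FPKM, by a margin from 65.92 to 65.85, but not in CPM. Xbp1 is strongly expressed by secretory epithelium such as goblet cells, and its values do not separate the spliced, active form from the unspliced one.

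Of the genes of antibody assembly, Mzb1 encodes an endoplasmic reticulum chaperone of B and plasma cells that helps antibody chains assemble (ENSMUSG00000024353, chromosome 18, 35647267 to 35649367 of GRCm38). It was at 4.99, 6.05 and 18.6 FPKM in 5-Fu and 10.96, 28.3 and 27.4 FPKM in 5-Fu+BBR. The 5-Fu replicate 3 exceeded 5-Fu+BBR replicate 1, so the groups overlapped. The means were 9.89 ± 7.6 FPKM and 22.2 ± 9.76 FPKM (SD, n = 3), and the log2 fold change was 1.10 ± 0.65 (adjusted p = 0.485 by edgeR). Derl3 showed the same order of groups, at 1.16, 0.896 and 3.01 FPKM in 5-Fu and 1.88, 4.23 and 5.30 FPKM in 5-Fu+BBR. Its groups overlapped as well (log2 fold change 1.10 ± 0.57, adjusted p = 0.408 by edgeR).

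Tnfrsf17, whose product BCMA is a survival receptor of long-lived plasma cells, had the largest log2 fold change of the 10 (ENSMUSG00000022496, chromosome 16, 11313812 to 11320074). It was at 0.265, 0.190 and 0.851 FPKM in 5-Fu and 0.982, 3.05 and 3.13 FPKM in 5-Fu+BBR. The groups did not overlap, though 5-Fu+BBR replicate 1 was much nearer to 5-Fu replicate 3 than to its own group. The log2 fold change was 2.36 ± 0.70 with an adjusted p of 0.193 by edgeR and 0.0194 by DESeq2. These values rest on 15, 12 and 46 deposited counts in 5-Fu and 59, 159 and 167 in 5-Fu+BBR. The commonest count above 0 was 4 in every library, among long genes with 1 transcript, so a count can be less than a sequenced fragment and the precision at this level is lower than the counts imply.

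Over the 10 genes, the groups did not overlap in FPKM for 3 genes that were higher in 5-Fu+BBR, Tnfrsf17, Pou2af1 and Irf4, where 11.5% of all genes tested did the same. They did not overlap for 1 that was lower, Xbp1, where 8.47% of all genes did.

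**Figure D2:**
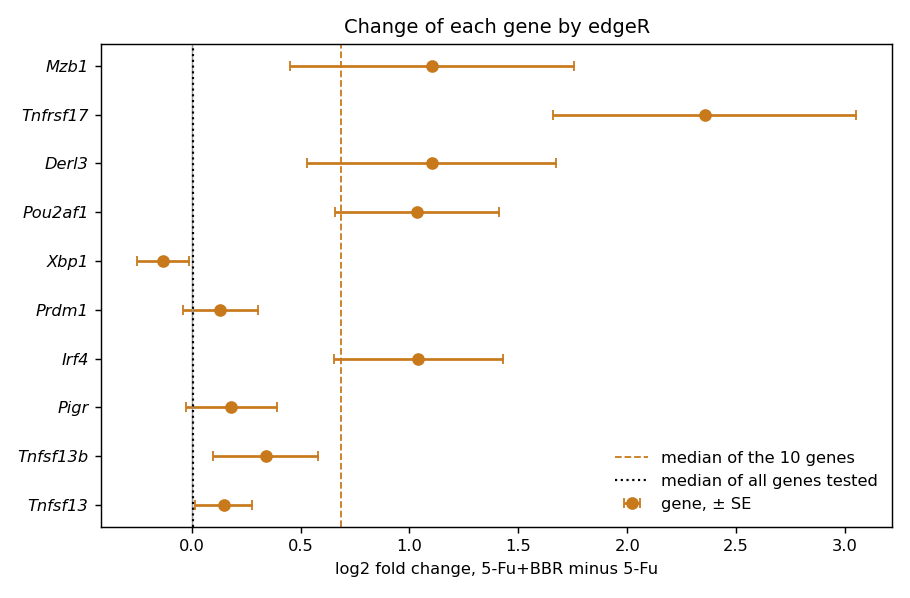
Log2 fold change (5-Fu+BBR minus 5-Fu, horizontal axis) of each of the 10 genes by edgeR with SE as bars, n = 3 per group. Tnfrsf17 is at 2.36, Mzb1, Derl3, Pou2af1 and Irf4 lie between 1.04 and 1.10, and the other 5 lie between -0.13 and 0.34. The dashed line is the median of the 10, 0.69, and the dotted line that of all genes tested, 0.01.

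The ligands did not separate the groups. Tnfsf13b, which encodes BAFF, was at 1.49, 2.09 and 1.34 FPKM in 5-Fu and 1.83, 2.85 and 1.54 FPKM in 5-Fu+BBR, with a log2 fold change of 0.34 ± 0.24 (adjusted p = 0.546 by edgeR). Tnfsf13, which encodes APRIL, was at 13.6, 13.6 and 14.8 FPKM in 5-Fu and 16.2, 14.5 and 16.0 FPKM in 5-Fu+BBR, with a log2 fold change of 0.15 ± 0.13 (adjusted p = 0.641 by edgeR). Both genes overlapped between groups, and without 5-Fu+BBR replicate 2 the value for Tnfsf13b was 0.07. For Tnfsf13 it was 0.25 without 5-Fu replicate 3 and 0.09 without 5-Fu replicate 2 or without 5-Fu+BBR replicate 1. The other 2 receptors of these ligands, named for that role after their values were seen, had higher means in 5-Fu+BBR. Only Tnfrsf13b of them did not overlap in FPKM, where 11.5% of all genes tested were higher without overlap. In CPM neither of the 2 overlapped between groups. Tnfrsf13b, encoding TACI, was at 1.87 ± 0.728 FPKM in 5-Fu and 4.70 ± 1.52 FPKM in 5-Fu+BBR, with a log2 fold change of 1.305 ± 0.37 (adjusted p = 0.182 by edgeR). Tnfrsf13c, encoding the BAFF receptor, was at 1.15 ± 0.732 FPKM and 2.48 ± 0.510 FPKM (log2 fold change 1.11 ± 0.43, adjusted p = 0.276 by edgeR).

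Pigr encodes the polymeric immunoglobulin receptor (ENSMUSG00000026417, chromosome 1, 130826684 to 130852249). It was at 569.8, 711 and 848 FPKM in 5-Fu and 842, 719 and 875 FPKM in 5-Fu+BBR. The lowest value was that of 5-Fu replicate 1, and the other 5 libraries overlapped. The log2 fold change was 0.18 ± 0.21 (adjusted p = 0.720 by edgeR), and it was 0.03 without 5-Fu replicate 1 and 0.40 without 5-Fu replicate 3. Of the 20 inducers and regulators of Pigr that were listed, 19 could be tested and 0 passed, with 0 at an unadjusted p under 0.05 by edgeR and a median log2 fold change of -0.07. The smallest p belonged to Tlr4, a receptor for bacterial lipopolysaccharide, at 6.05 ± 0.565 FPKM in 5-Fu and 4.73 ± 0.716 FPKM in 5-Fu+BBR (adjusted p = 0.357 by edgeR). Next were Tnfrsf1a, a TNF receptor, with a log2 fold change of -0.30 ± 0.15 (adjusted p = 0.383) and Il17a, a cytokine that induces Pigr. Il17a was at 0.228, 0.898 and 0.0407 FPKM in 5-Fu and at 0.165, 0.0746 and 0 FPKM in 5-Fu+BBR, from at most 79 counts per library (adjusted p = 0.462 by edgeR).

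The spread within each group followed a pattern shared by 5 of the genes. Within 5-Fu, replicate 3 was highest for Mzb1, Tnfrsf17, Derl3, Pou2af1 and Irf4, and within 5-Fu+BBR, replicate 1 was lowest for all 5. Relative to the 5-Fu mean on the log2 CPM scale, Mzb1 was at -0.74, -0.54 and 1.28 in 5-Fu and 0.46, 1.73 and 1.71 in 5-Fu+BBR. Without 5-Fu replicate 3 the log2 fold change of Mzb1 was 2.05 (adjusted p = 0.117 by edgeR), and that of Tnfrsf17 was 3.36 (adjusted p = 0.0893). For Derl3 it was 1.9 (adjusted p = 0.116) and for Irf4 1.57 (adjusted p = 0.0824). With 5-Fu+BBR replicate 1 alone against 5-Fu it was 0.14 for Mzb1, 0.15 for Derl3 and 1.14 for Tnfrsf17, with adjusted p values by edgeR of 0.991, 0.990 and 0.882. For Pou2af1 and Irf4 it was 0.60 and 0.65, and in this comparison the lone library is assumed to vary like those of 5-Fu.

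The 2 libraries with the highest values of these genes in 5-Fu+BBR were those with high kidney transcripts. They also had the highest summed levels of the 14 T and NK cell genes, 128.2 and 128.1 CPM against 72.9 CPM in 5-Fu+BBR replicate 1 and 38.2 to 49.8 CPM in 5-Fu. For 9 dendritic cell genes the sums were 46.2 and 37 CPM against 28.1 CPM and 13.1 to 16.8 CPM in the same order. For 9 adipocyte genes they were 272 and 187.5 CPM against 183 CPM and 89.1 to 110.0 CPM, with Lep at 0 counts in every 5-Fu library. Much of the adipocyte sum in 5-Fu was Pparg, with a mean of 46.45 CPM there and a log2 fold change of -0.004 ± 0.11. The other 8 adipocyte genes had positive log2 fold changes. The adipocyte median, relative to the 5-Fu mean on the log2 CPM scale, had another order than the sum. It was 2.415, 2.704 and 2.227 for 5-Fu+BBR replicates 1 to 3, so replicate 1 lay above replicate 3. For 8 smooth muscle genes the sums were 4825 and 4480 CPM for replicates 2 and 3, against 4243 CPM for replicate 1 and 2300.0 to 3017 CPM across 5-Fu. The 9 neutrophil genes ran the other way, with 8 of 9 log2 fold changes below 0 and a median of -2.73. None passed, and 3 had an unadjusted p under 0.05 by edgeR, where 6.08% of all genes did in that direction. Their median relative to the 5-Fu mean on the log2 CPM scale was 1.27, 0.93 and -2.31 in 5-Fu replicates 1 to 3 and -0.50, -4.25 and -5.16 in 5-Fu+BBR. This is the reverse of the order of the libraries in the mean profile of Mzb1, Tnfrsf17, Derl3 and Pou2af1, 5-Fu replicate 3 included. In 5-Fu+BBR replicates 2 and 3, only 6 and 5 of the 9 neutrophil genes had counts above 0. The medians there rest on values near 0. Csf3r and Ly6g had log2 fold changes of 0.03 ± 0.36 and -0.26 ± 0.25. The sum of the neutrophil genes, mostly of Ly6g, was 307 to 493 CPM in 5-Fu and 248 to 399.8 CPM in 5-Fu+BBR. Goblet cell genes, 8 in all, summed to 7415 to 13060 CPM in 5-Fu and 13740 to 15990 CPM in 5-Fu+BBR. Their medians relative to the 5-Fu mean overlapped, at -0.261 to 0.211 in 5-Fu and 0.083 to 0.419 in 5-Fu+BBR. Only 1 of the 8, Clca1, had an unadjusted p under 0.05 by edgeR, where 9.48% of all genes did in that direction. Clca1 was also the only 1 higher without overlap in FPKM, where 11.5% of all genes were. The 10 macrophage and monocyte genes summed to 475 to 602 CPM in 5-Fu and 693 to 893 CPM in 5-Fu+BBR. The part of these cell types in the values of the plasma cell genes was not tested. In 5-Fu replicate 3, Mzb1 was at 18.6 FPKM and kidney genes summed to 64.1 CPM, the highest kidney sum in 5-Fu. This is 1 library, and the part of kidney tissue in its values was not tested. Much of the kidney sum in 5-Fu was Nphs1, with a mean of 34.6 CPM. Of the 12 kidney genes tested, Nphs1 alone had a negative log2 fold change (-0.51 ± 0.20), and 11 had positive ones.

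**Figure D3:**
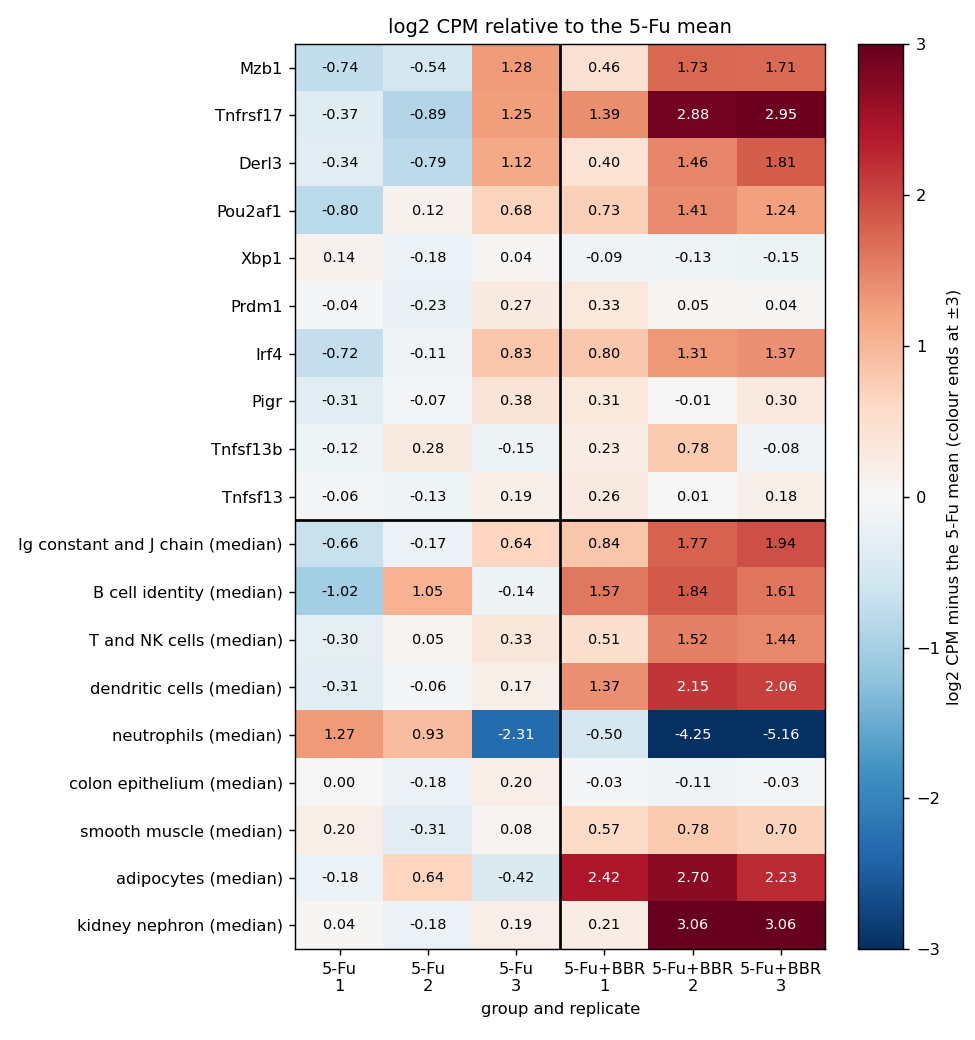
Log2 CPM relative to the 5-Fu mean (colour and printed value) for the 10 genes, upper rows, and the median of marker lists, lower rows, in each of the 6 libraries. Kidney genes stand at 3.06 in 5-Fu+BBR replicates 2 and 3 and between -0.18 and 0.21 elsewhere. Mzb1 is at 1.73 and 1.71 in 5-Fu+BBR replicates 2 and 3 and at 1.28 in 5-Fu replicate 3.

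B cell genes had another order of libraries within 5-Fu than plasma cell genes. All 16 genes listed as B cell identity genes repressed in plasma cells had positive log2 fold changes (median 1.42), against 50.7% of all genes. In bulk tissue other cells can add to these values, and which cells the transcripts came from was not tested. Of the 16 genes, 0 passed the adjusted threshold. An unadjusted p under 0.05 by edgeR was seen for 13 of them, against 9.48% of all genes in that direction. Their median relative to the 5-Fu mean was -1.02, 1.05 and -0.14 in 5-Fu replicates 1 to 3 and 1.57, 1.84 and 1.61 in 5-Fu+BBR. In 5-Fu, the median of the B cell genes was thus highest in replicate 2, and plasma cell genes were highest in replicate 3. The plasma cell genes did not all move alike in replicate 2. Relative to the 5-Fu mean, Mzb1, Tnfrsf17 and Derl3 were at -0.54, -0.885 and -0.79 there. Irf4 was at -0.11, and Pou2af1 was above the mean at 0.12. The 3 members of smallest p were Ciita, the switch of MHC class II genes, Bach2, a repressor that delays plasma cell differentiation, and Spi1, which encodes PU.1. Ciita was at 1.35 ± 0.505 FPKM in 5-Fu and 4.09 ± 1.32 FPKM in 5-Fu+BBR (adjusted p = 0.108 by edgeR), Bach2 at 0.370 ± 0.130 and 0.911 ± 0.0410 FPKM (adjusted p = 0.122) and Spi1 at 1.99 ± 0.530 and 3.38 ± 0.240 FPKM (adjusted p = 0.158).

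Among the antibody genes, Igha, the IgA heavy chain, was at 211, 249 and 356 FPKM in 5-Fu and 401, 939 and 983 FPKM in 5-Fu+BBR (adjusted p = 0.157 by edgeR). Of 10 immunoglobulin constant and J chain genes, all had positive log2 fold changes (median 1.48), 0 passed and 7 had an unadjusted p under 0.05 by edgeR, where 50.7% of all genes were above 0 and 9.48% had such a p in that direction. Igkc and Iglc3, light chain constant genes, had adjusted p values of 0.132 and 0.119, and values of single immunoglobulin genes are uncertain, since their near-identical copies can share reads.

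Ratios within a library do not depend on its scaling. Igha stood at 42.4, 41.1 and 19.1 times the FPKM of Mzb1 in 5-Fu replicates 1 to 3 and at 36.6, 33.2 and 35.9 times in 5-Fu+BBR. The 5-Fu replicate 3 was thus below all others, with more Mzb1 per Igha, and the J chain gene Jchain gave the same order there, at 6.47 times Mzb1 against 10.7 to 14.6 times in the other 5 libraries. Between groups the log2 ratio of Igha to Mzb1 differed by 0.13 and that of Jchain to Mzb1 by 0.17, less than the SD of 0.65 and 0.67 within 5-Fu (p = 1.0 for both, two-sided exact permutation test). Derl3 and Pou2af1 relative to Mzb1 differed by -0.06 and -0.17 (p = 0.9 and 0.7, exact permutation test). Only the ratio of Tnfrsf17 to Mzb1 of the 7 examined had groups that did not overlap. It was 0.0532, 0.0314 and 0.0456 in 5-Fu and 0.0896, 0.108 and 0.114 in 5-Fu+BBR, a log2 difference of 1.28 (p = 0.1, exact permutation test, the smallest that 3 against 3 can give, and 0.7 adjusted over the 7 ratios). Pigr relative to the epithelial gene Epcam differed by 0.08 (p = 0.7) and Tnfsf13 relative to Tnfsf13b by -0.16 (p = 0.6, exact permutation tests).

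**Figure D4:**
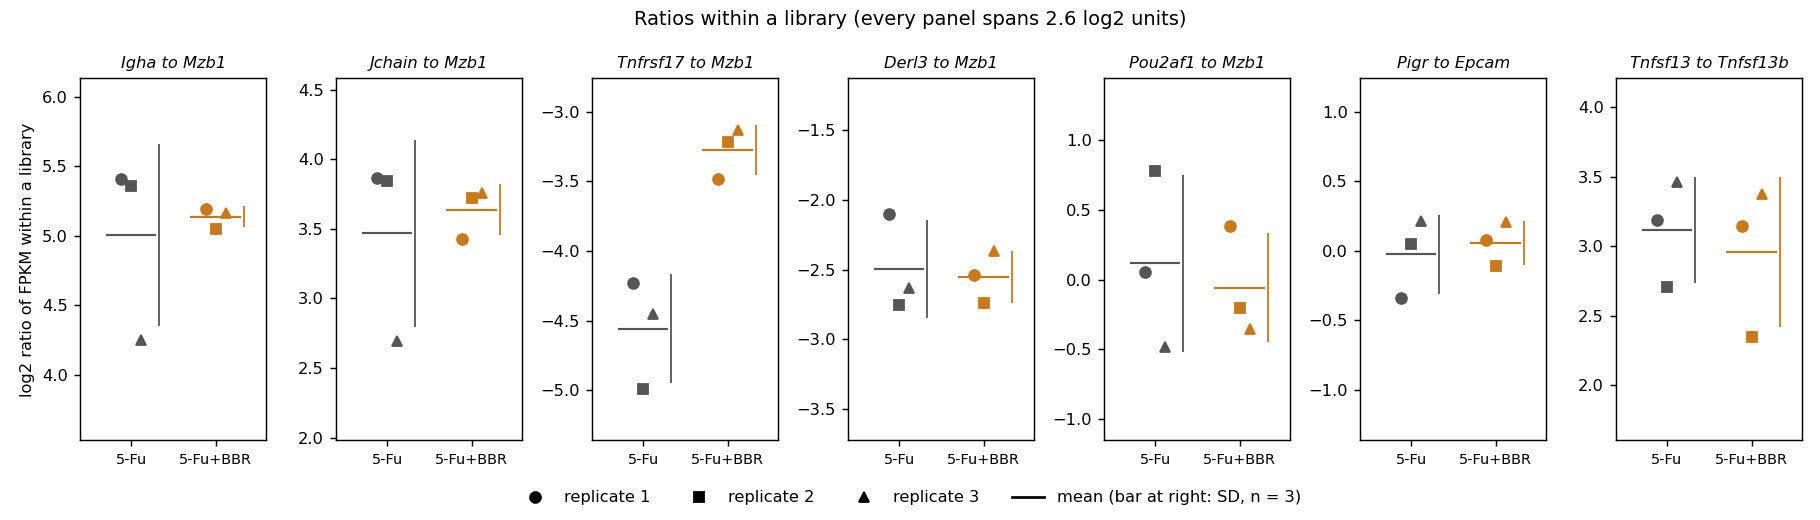
Log2 ratio of FPKM within a library (vertical axes, each spanning 2.6 units) for 7 pairs of genes in the 3 libraries of each group, with group means as lines and SD as bars. Tnfrsf17 to Mzb1 is the one pair without overlap, with means of -4.56 in 5-Fu and -3.27 in 5-Fu+BBR, and 5-Fu replicate 3 is low for Igha and Jchain to Mzb1.

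Other genes of the pathway were counted from lists chosen with earlier results known. Of 18 genes of plasma cell surface and homing, 0 passed, 9 had an unadjusted p under 0.05 with a positive and 1 with a negative log2 fold change by edgeR, where 9.48% and 6.08% of all genes did, and the median was 0.94. The 3 of smallest p were Cd27, a TNF receptor of memory B, plasma and T cells, and Itga4 and Itgb7, the subunits of the gut-homing integrin of lymphocytes. Cd27 was at 0.457, 0.415 and 0.454 FPKM in 5-Fu and 1.35, 1.95 and 1.83 FPKM in 5-Fu+BBR, with a log2 fold change of 1.92 ± 0.27 (adjusted p = 0.0702 by edgeR). Itga4 was at 0.925 ± 0.162 and 2.07 ± 0.334 FPKM (adjusted p = 0.0752) and Itgb7 at 2.71 ± 0.821 and 6.005 ± 1.68 FPKM (adjusted p = 0.151), and neither gene overlapped between groups. All 3 genes are also expressed by T cells.

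The 31 genes of endoplasmic reticulum load and the unfolded protein response had a median log2 fold change of -0.03, between -0.33 and 0.38, with 15 above and 16 below 0. None passed, and 2 in each direction had an unadjusted p under 0.05 by edgeR, near the 9.48% and 6.08% of all genes. Sdf2l1, an endoplasmic reticulum cochaperone, was at 21.1 ± 2.05 FPKM in 5-Fu and 25.9 ± 1.29 FPKM in 5-Fu+BBR (adjusted p = 0.256 by edgeR). Atf6, a sensor of endoplasmic reticulum stress, was at 8.34 ± 1.42 and 6.64 ± 0.110 FPKM (adjusted p = 0.258), and Sec61b, a subunit of the translocation channel, at 61.5 ± 7.71 and 50.6 ± 4.91 FPKM (adjusted p = 0.267). These genes, like Xbp1, are used by all secretory cells.

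Of 21 genes of IgA induction, survival and homing signals, 19 could be tested, 0 passed, and 7, all with positive log2 fold changes, had an unadjusted p under 0.05 by edgeR, where 9.48% of all genes did in that direction. Their median was 0.30. Il6 and Il5 were too low to be tested. Ltb, encoding lymphotoxin beta, was at 6.29 ± 3.76 FPKM in 5-Fu and 18.0 ± 2.27 FPKM in 5-Fu+BBR (adjusted p = 0.140 by edgeR) and Cd40, a receptor for T cell help to B cells, at 1.05 ± 0.681 and 2.76 ± 0.353 FPKM (adjusted p = 0.168).

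The genes with the profile most like that of Mzb1, Tnfrsf17, Derl3 and Pou2af1 were sought by Pearson correlation of log2 CPM with their mean standardised profile over the 6 libraries. Among 11603 genes with a mean of at least 1 FPKM, 228 had a correlation over 0.9, and with 6 points that share libraries and depth this is a description only. Among the 6 highest were Saraf (0.997), Afm (0.991), Fnip1 (0.991), Map3k1 (0.987) and Edem1 (0.987). Edem1, which helps clear misfolded glycoproteins from the endoplasmic reticulum, was at 22.9, 24.4 and 25.2 FPKM in 5-Fu and 24.6, 29.1 and 30.1 FPKM in 5-Fu+BBR. Xbp1 and Prdm1 had correlations of -0.41 and 0.47 with the same profile and Irf4 one of 0.97.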

How the data were processed

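RNA of 6 colon samples was sequenced. Per the submitters' processing notes, the build was GRCm38 and the tools included HISAT2 2.0.4, StringTie 1.3.4d, UMI-tools, edgeR, DESeq2 and cutadapt 1.9, their roles and the annotation not given in the sources used here. The deposited table holds the authors' estimated counts, as whole numbers, and the authors' FPKM for each library. For at least 92.1% of genes with 1 transcript and over 50 counts, the count was within 2% of FPKM times transcript length times one factor per library. FPKM of a gene with several transcripts also moves with their mix.

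Libraries were grouped by the labelled treatment. Counts were filtered with filterByExpr (20101 of 30777 genes left), given TMM factors, and compared by the robust quasi-likelihood test of edgeR 4.0.16, two-sided, with Benjamini-Hochberg adjustment over all genes tested; SE is the log2 fold change divided by the root of F. Alternatives used limma 3.58.1 and DESeq2 1.42.0 in R 4.3.3. Ratios were tested by exact permutation (scipy 1.17.1). Chi-square values per gene between libraries were at least 73.9, and at least 18.5 with the counts divided by 4. No pair thus agreed within sampling noise. The edgeR step was tested on simulated data. Promoter sequences are RefSeq's.

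The members and lists were chosen with earlier results of these data known. Named besides the 10 genes are the 3 members of smallest p of each pathway list and the 6 genes of most similar profile. Of these, 2 genes are not reported here.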

Additional observations from a re-analysis of the deposited data

How the results depend on the processing

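None of the 10 genes changed the sign of its log2 fold change in any of the 19 alternatives that could test it. Their number past the threshold was 0 in 18 alternatives and 2 with DESeq2, Tnfrsf17 and Pou2af1. The cause was not tested. Their median log2 fold change of 0.69 was 0.208 with limma-trend on log2(FPKM + 1) and 0.298 on log2(FPKM + 0.1), in both of which Tnfrsf17 falls to the filter, and 0.259 with 5-Fu+BBR replicate 1 alone, and ranged from 0.5 to 0.914 when a library was left out. Leaving out a library passed 0 of the 10 each time.

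Replicate numbers are shared by the groups, but the deviations of same-numbered libraries correlated at 0.058, 0.024 and 0.123, so the numbers were not taken as pairs. The fit with a replicate block called 91 genes higher and 22 lower, against 12 and 3 without it, and 0 of the 10.

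Over all genes, 64 were higher and 13 lower with no filter, 20 and 6 with library totals alone, 879 and 347 with DESeq2, and 119 and 25 at an adjusted p under 0.1. With limma-trend on log2(FPKM + 0.1) 1 was lower, and with 5-Fu+BBR replicate 1 alone 0 in either direction. Leaving out a library gave 0 to 145 higher and 0 to 15 lower, with 0 and 0 without 5-Fu replicate 1 or without 5-Fu+BBR replicate 2 (edgeR's unadjusted p was under 0.05 for 2062 and 1888 genes there).

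Differences in ratio changed sign when a library was left out, except Tnfrsf17 to Mzb1 (1.07 to 1.45). The differences ranged from -0.246 to 0.329 for Igha to Mzb1 and -0.22 to 0.367 for Jchain to Mzb1 (both reversed without 5-Fu replicate 3), -0.186 to 0.144 for Derl3 to Mzb1 (without 5-Fu replicate 1 or 5-Fu+BBR replicate 2), -0.475 to 0.157 for Pou2af1 to Mzb1 (without 5-Fu replicate 2), -0.0735 to 0.203 for Pigr to Epcam (without 5-Fu replicate 1) and -0.37 to 0.143 for Tnfsf13 to Tnfsf13b (without 5-Fu replicate 3 or 5-Fu+BBR replicate 2). edgeR's newer quasi-likelihood method, chosen after seeing the data, passed 0 of the 10.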

Other observations

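Some genes of the plasma cell surface list were named after their values were seen. Cd38, a surface enzyme of plasma cells and many other immune cells, had the opposite sign to Mzb1, at 108 ± 11.2 FPKM in 5-Fu and 69.3 ± 12.7 FPKM in 5-Fu+BBR (SD, n = 3, log2 fold change -0.65 ± 0.19, adjusted p = 0.188 by edgeR), and its groups did not overlap. Sdc1, which encodes the plasma cell marker CD138 and is also expressed by epithelium, was at 31.3 ± 0.938 and 33.7 ± 4.22 FPKM (adjusted p = 0.732 by edgeR). Ccr10, the receptor by which IgA plasma cells home to the colon, was at 0.809 ± 0.358 and 1.71 ± 0.624 FPKM (adjusted p = 0.308 by edgeR). Its epithelial ligand Ccl28 was at 30.6 ± 5.95 and 30.9 ± 2.91 FPKM (adjusted p = 0.999 by edgeR).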
